A study of Rattus norvegicus with 23 samples.

Results

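Pulmonary surfactant and the type II pneumocytes that make it were followed here through 10 genes: Sftpa1, Sftpb, Sftpc, Sftpd, Abca3, Lamp3, Napsa, Lpcat1, Slc34a2 and Etv5. They were picked by symbol in the gene annotation of the array, as known genes of this system, with earlier results of these data known. All 10 were measured, with 14 probes, among 23031 genes. Expression was measured on single-colour Agilent rat arrays in total RNA of the accessory lobe of the lung, with 1 rat per array.

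All the rats were male F344 Fisher rats aged 19 months when inhalation began, the elderly rats of the study. Exposed rats breathed an aerosol of titanium dioxide (TiO2) at 10 mg/m3 through the nose only, 6 h a day on 5 days a week for 4 weeks. Control rats breathed filtered air. Rats were killed at the end of exposure (D0) or 28 days later (D28), which gave 6 control and 5 exposed arrays on D0 and 6 control and 6 exposed arrays on D28. One label of the exposed D28 arrays, the source name, reads Day 0, but their titles and descriptions give 28 days, and the titles were followed.

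Surfactant is a film of phospholipid and protein that lowers surface tension in the alveoli, the air sacs of the lung. Type II pneumocytes build it in lamellar bodies, storage organelles related to lysosomes, and release it by exocytosis, while alveolar macrophages and the type II cells themselves clear the used material. The same cells divide after injury of the alveolar wall and give rise to the flat type I cells that carry gas exchange. Surfactant proteins A and D (Sftpa1 and Sftpd) are collectins, soluble lectins with a collagen-like stem that bind microbes and particles. Proteins B and C (Sftpb and Sftpc) are small and strongly hydrophobic, and spread the lipid film.

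The probes for both collectins, an unusual probe for Sftpc and the sequence upstream of Sftpb are shown, the probes because the results below rest on what they detect, and the upstream region because it holds sites of a kind bound by NKX2-1, whose gene returns below. Positions of probes are those of the rat assembly rn4 in the array annotation. The first Sftpa1 probe lay at chr16:17571596-17571655 and holds 5 codons for glycine with 2 other codons between each and the next, as in a collagen-like stem. These 5 codons are in capitals.
Sftpa1 probe A_44_P1100084: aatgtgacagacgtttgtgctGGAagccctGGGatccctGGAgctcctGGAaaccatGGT
The second Sftpa1 probe, with no such run, lay at chr16:17573232-17573291.
Sftpa1 probe A_44_P193130: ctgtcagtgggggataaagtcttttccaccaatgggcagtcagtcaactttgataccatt
The Sftpd probe lay on the minus strand at chr16_random:39932-39991, a contig not placed on the chromosome, and ends with a stop codon, in capitals, that closes an open reading frame.
Sftpd probe A_44_P1081650: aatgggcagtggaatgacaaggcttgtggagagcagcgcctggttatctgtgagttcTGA
Sftpc had 2 probes of opposite orientation. One was designed on the Sftpc transcript, on the minus strand at chr15:50923136-50923195, and the other on an expressed sequence tag, on the plus strand at chr15:50924078-50924357. The order of the positions gave the RefSeq strand for 95.2% of 14607 probes that could be compared. The second probe, 60 bases in a mapped interval of 280 bases, would therefore hybridise to RNA of the strand opposite to Sftpc.
Sftpc probe A_44_P474867: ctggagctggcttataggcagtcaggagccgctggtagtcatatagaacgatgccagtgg

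For 7 of the 10 genes, RefSeq sequence around the transcription start was at hand (assembly GRCr8). CTCAAG, a core of the sites bound by the lung transcription factor NKX2-1, was searched on both strands in the 250 bases upstream of the start. It was found in 13.3% of 33469 promoters and in 1 of these 7. TGTTTGC, a form of the forkhead factor site, was found in 4.16% of promoters and again in 1 of the 7. Sftpb held both, with CTCAAG in 2 copies, as did 1.09% of all promoters for CTCAAG. Its upstream region, chr4:105917338-105917587 on the plus strand, is given with the matches in capitals, the forkhead match on the opposite strand. These are matches of letters, and binding was not measured.
Sftpb upstream region: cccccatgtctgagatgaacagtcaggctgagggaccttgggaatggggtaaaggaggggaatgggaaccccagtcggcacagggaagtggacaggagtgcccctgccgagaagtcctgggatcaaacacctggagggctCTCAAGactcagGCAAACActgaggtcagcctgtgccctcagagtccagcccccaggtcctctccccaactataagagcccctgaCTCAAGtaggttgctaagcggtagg

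Every probe of the 10 genes was well above background on all 23 arrays, and no spot was saturated. Values are log2 processed signals after quantile normalization between arrays, averaged over the probes of a gene. They do not allow a comparison of levels between genes. The lowest correlation between arrays of a group, over all genes, was r = 0.967. They came from 5 slides with 1 to 7 arrays each, and exposed and control arrays shared 4 slides for D0 and 3 slides for D28. In RNA of a whole lobe, more type II cells and more RNA per cell cannot be told apart.

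None of the 10 genes was a differentially expressed gene (DEG) on either day, where a DEG had an adjusted p below 0.05 in limma over all genes and a fold change (FC) of at least 1.5. DEGs made up 1.78% of all genes on D0 and 0.756% on D28. The shifts were nevertheless mostly of one sign. On D0, 9 of the 10 genes had a higher mean in exposed rats, with a median log2 FC of 0.24 beside -0.00077 over all genes, of which 49.9% were higher. On D28, 8 of 10 were higher, with a median of 0.19 beside -0.0056 and 48.9%. Sftpc entered these counts, higher on D0 and lower on D28, through its opposite-strand probe, for a reason given below. Its probe on the gene strand gave a log2 FC of 0.066 on D0 and 0.045 on D28 after scaling to the 75th percentile. At an unadjusted p below 0.05, 6 of the 10 genes passed on D0 and 4 on D28, beside 11.9% and 11% of all genes. Of the 6 on D0, 5 were higher in exposed rats and Etv5 was lower, and the 4 on D28 were higher. These genes were read on the same arrays and are not independent of each other.

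**Figure D1:**
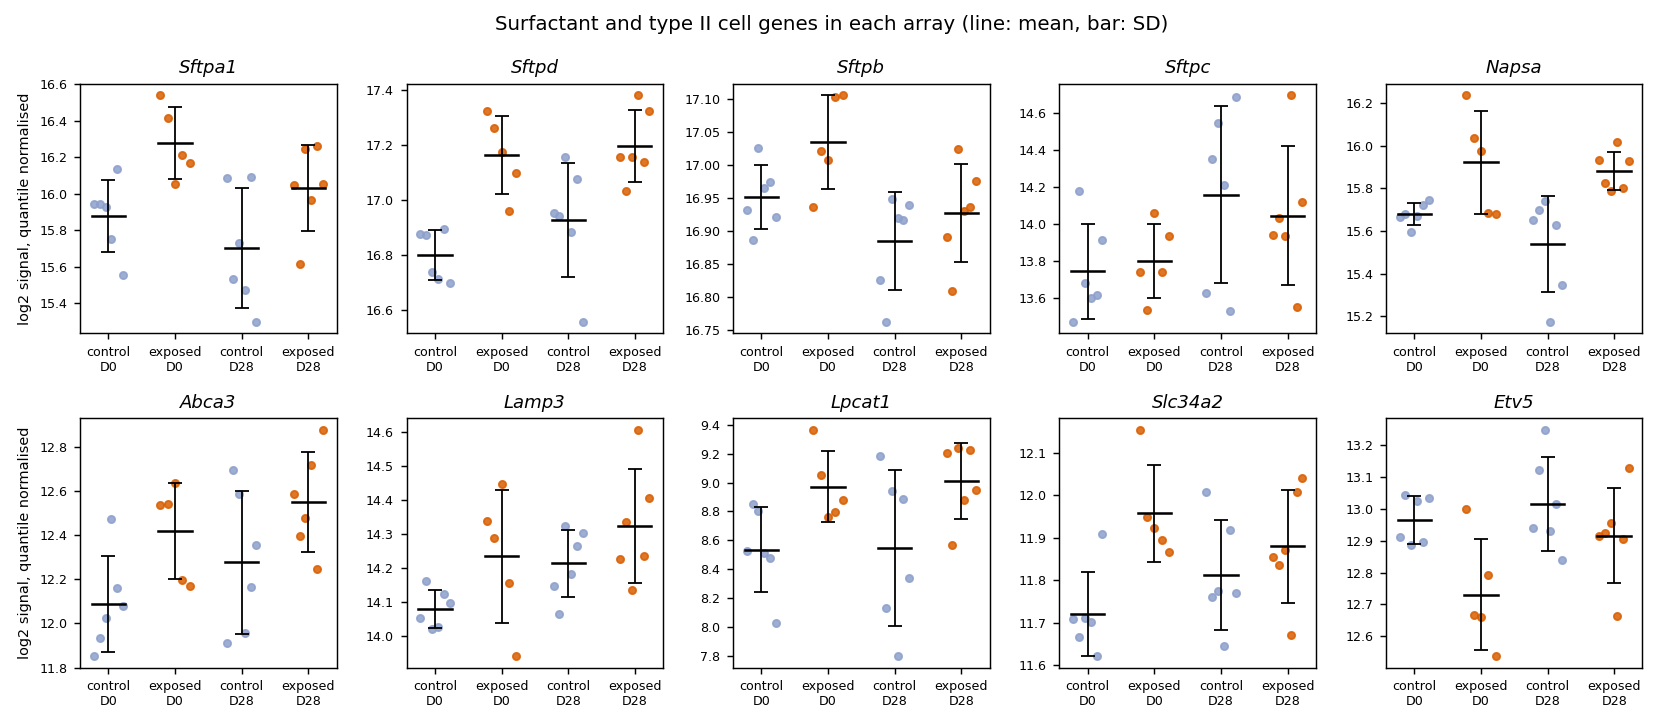
Log2 signal (vertical axis, quantile normalised, a separate scale for each gene) of the 10 genes in every array, by group, with a point for each rat, a line for the mean and a bar for the SD. Exposed and control rats do not overlap for Sftpd on D0 and for Napsa on D28, and overlap in all other panels.

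Among the collectins, Sftpd was the member with the smallest adjusted p. Its log2 signal in the 5 exposed rats of D0 was 17.33, 17.26, 17.18, 16.96 and 17.10. In the 6 control rats of D0 the lowest value was 16.70, the median 16.81 and the highest 16.90. Every exposed rat of D0 thus lay above every control rat, a separation with exposed rats on top that 1.94% of all genes had. It depended on the scale. After scaling to the 75th percentile the groups overlapped narrowly, with the highest control at 16.9939 and the lowest exposed rat at 16.9924. The log2 FC was 0.37 (SE 0.098, a 1.29-fold difference), with a limma adjusted p of 0.0469, which 2.85% of all genes passed, and an FC below the limit of 1.5. That p lay close to the limit. It was 0.00944 with slide as a block and 0.119 after scaling to the 75th percentile, within a range of 0.00185 to 0.157 over the settings tried. When arrays were left out in turn it ran from 0.0194 to 0.128, and was below 0.05 for 7 of the 23, while the log2 FC stayed between 0.32 and 0.41. Within the 4 slides that held both groups, the differences were 0.45, 0.075, 0.45 and 0.47.

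On D28, Sftpd ran from 16.56 over a median of 16.95 to 17.16 in control rats and from 17.03 over 17.16 to 17.38 in exposed rats. The groups overlapped, although 6 of 6 exposed rats lay above the median of the controls. The log2 FC of 0.27 (SE 0.094) had an adjusted p of 0.207. Within the 3 shared slides, the differences were 0.30, 0.13 and 0.47.

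Sftpa1 showed a similar size of difference with a wider spread. The exposed rats of D0 had values of 16.54, 16.41, 16.05, 16.21 and 16.17, and the control rats ran from 15.55 over a median of 15.93 to 16.13. Of the 5 exposed rats, 4 lay above all controls. Its log2 FC was 0.40 (SE 0.15, 1.32-fold), with an adjusted p of 0.206 in limma, and of 0.00952 at a log2 FC of 0.44 with slide as a block, in a range of 0.00952 to 0.369 over the settings tried. On D28 the control rats ran from 15.30 over 15.63 to 16.09 and the exposed rats from 15.61 over 16.05 to 16.26, with overlap. The log2 FC was then 0.33 (SE 0.14, adjusted p 0.373). All 7 within-slide differences of both days were positive, from 0.17 to 0.60. Both probes gave the same sign: 0.46 and 0.35 on D0, and 0.37 and 0.29 on D28, with the probe over the glycine repeat first. Mean Sftpa1 was highest in exposed rats of D0 and lowest in control rats of D28, whereas mean Sftpd was highest in exposed rats of D28, with 17.17 and 17.20 in the exposed groups, and lowest in control rats of D0.

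The hydrophobic surfactant proteins gave smaller differences. Values of Sftpb were 16.94, 17.02, 17.01, 17.10 and 17.11 in exposed rats of D0 and ran from 16.89 over 16.95 to 17.03 in controls, with overlap. Its log2 FC was 0.084 (SE 0.062, adjusted p 0.742 in limma) on D0 and 0.042 (SE 0.059, adjusted p 0.887) on D28, where leaving out control replicate 2 or exposed replicate 2 or 3 moved it to between 0.018 and 0.066. Quantile normalization narrowed its spread: the SD within groups was 0.068, and 0.22 after scaling to the 75th percentile. On the latter scale, the log2 FC was 0.14 (SE 0.14) on D0 and 0.074 (SE 0.13) on D28. The narrow intervals of Sftpb in the plot of effects are hence partly set by the scale.

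Sftpc, the gene most specific to type II cells, could not be read from quantile normalised values. Its gene-strand probe was the brightest probe on 22 of 23 arrays and second on 1. Quantile normalization gives the brightest spot of every array one common value, here a log2 signal of 18.37. All the variation in mean Sftpc therefore came from the opposite-strand probe, apart from that 1 array. For the gene mean, the log2 FC was 0.057 (SE 0.21) on D0 and -0.11 (SE 0.20) on D28, with adjusted p of 0.996 and 0.919.

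Scaling to the 75th percentile left the gene-strand probe free to vary. On that scale it averaged 18.30 ± 0.11 (SD, n = 6) in control and 18.36 ± 0.21 (SD, n = 5) in exposed rats of D0. The difference of 0.066 gave p = 0.513 in a two-sided exact permutation test. On D28 the means were 18.39 ± 0.41 (SD, n = 6) and 18.44 ± 0.20 (SD, n = 6), and the difference of 0.045 gave p = 0.842 in the same exact test, whose smallest possible p is 0.0022. Before any scaling, the differences were 0.011 (exact p = 0.939) and -0.14 (exact p = 0.303). The limma 95% interval of the gene-strand probe was -0.27 to 0.40 on D0 and -0.27 to 0.36 on D28, so differences of this size cannot be told from none.

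The opposite-strand probe varied far more between rats. After scaling to the 75th percentile, it averaged 9.11 ± 0.52 (SD, n = 6) in control rats of D0 and 9.96 ± 0.94 (SD, n = 6) in control rats of D28. That difference of 0.85 had p = 0.0866 in the exact permutation test. Its difference between exposed and control rats was 0.14 on D0 (exact p = 0.615) and -0.24 on D28 (exact p = 0.630).

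**Figure D2:**
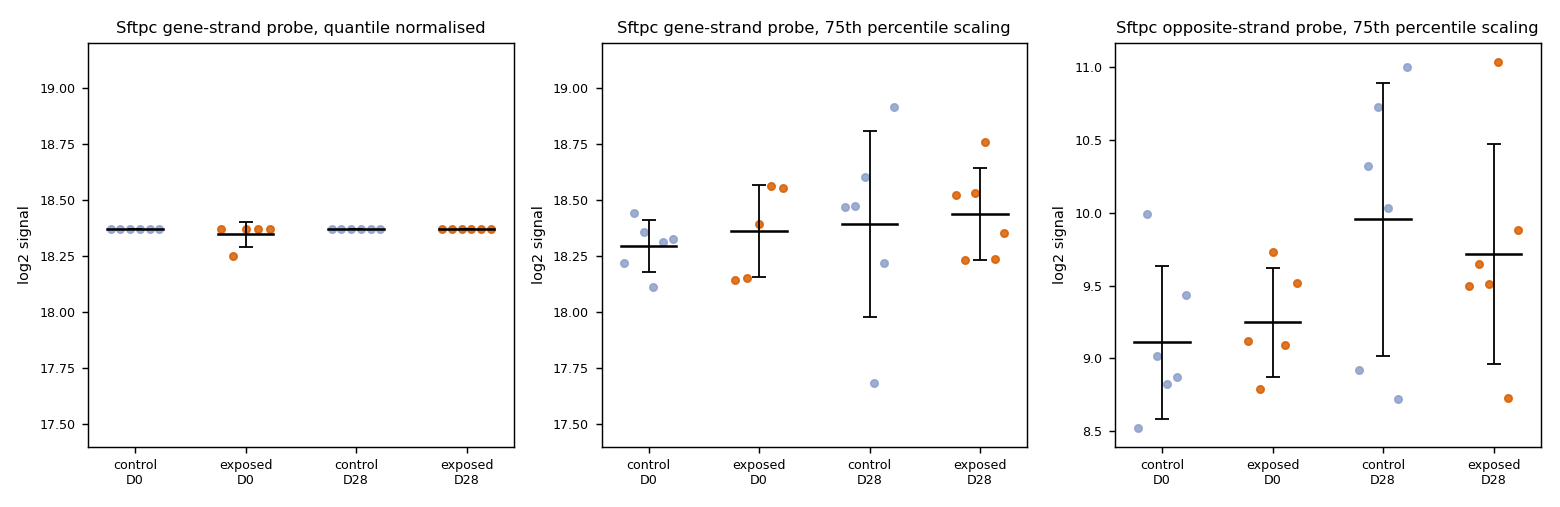
Log2 signal (vertical axes) of the gene-strand probe of Sftpc after quantile normalization (left) and after scaling to the 75th percentile (middle, same axis), and of its opposite-strand probe after that scaling (right), with a point for each rat, the mean as a line and the SD as a bar. The gene-strand probe has a single value of 18.37 on 22 of 23 arrays after quantile normalization, and spreads from 17.69 to 18.91 after scaling.

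Of the enzymes and transporters that process and pack surfactant, Napsa stood out on D28. It encodes napsin A, an aspartic protease that helps to cleave the precursors of proteins B and C. The exposed rats ran from 15.79 over a median of 15.88 to 16.02, and the control rats from 15.17 over 15.64 to 15.74. The groups did not overlap, with exposed rats on top, as for 0.677% of all genes. After scaling to the 75th percentile they did overlap, with the highest control at 15.79 and the lowest exposed rat at 15.76. The log2 FC was 0.34 (SE 0.10, 1.27-fold), but the limma adjusted p was 0.120, and ran from 0.049 to 0.351 over the other settings. Within the 3 slides, the differences were 0.25, 0.16 and 0.48. The low controls were replicates 4 and 6, at 15.17 and 15.35, and the other 4 were at 15.63 or above. Replicate 4 was alone on its slide, the only one read with the later scanner software. Leaving out single arrays kept the log2 FC between 0.27 and 0.38, with adjusted p from 0.0902 to 0.230 in limma.

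On D0 the 5 exposed rats had Napsa values of 16.24, 16.03, 15.98, 15.68 and 15.68, and the controls ran from 15.59 over 15.67 to 15.74. Of these rats, 3 lay above all controls and the others within the control range. Its log2 FC was 0.24 (SE 0.11, adjusted p 0.342 in limma, and 0.0342 to 0.595 over the other settings, below 0.05 in 1 of them). The within-slide differences ran from -0.0099 to 0.56.

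Abca3 encodes the transporter that loads phospholipid into lamellar bodies. Exposed rats of D0 had values of 12.54, 12.54, 12.64, 12.20 and 12.17, beside 11.85 to 12.47 with a median of 12.05 in controls, so that 3 of 5 lay above all controls. Abca3 had a log2 FC of 0.33 (SE 0.15, adjusted p 0.381 in limma) on D0 and 0.27 (SE 0.15, adjusted p 0.532) on D28. Within slides the mean difference was 0.37 on D0 (0.11 to 0.61) and 0.17 on D28 (0.042 to 0.33). The probe designed on a predicted RefSeq transcript, at chr10:13664786-13664845, had log2 FC of 0.28 (SE 0.10) and 0.29 (SE 0.10), and the other, at chr10:13621839-13621898, had 0.38 (SE 0.24) and 0.26 (SE 0.23). Over the rats, the deviations of these probes from their group means correlated at only r = 0.28 (rho = 0.31, n = 23), beside r = 0.68 for the Sftpa1 probes, 0.78 for the overlapping Sftpb probes and 0.52 for the Sftpc probes of opposite orientation, on the scale of the 75th percentile.

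Lamp3, a glycoprotein of the lamellar body membrane also known as DC-LAMP, differed by a log2 FC of 0.15 (SE 0.092, adjusted p 0.612 in limma) on D0 and 0.11 (SE 0.088, adjusted p 0.732) on D28. In exposed rats of D0 it had values of 14.34, 14.29, 14.45, 14.16 and 13.94, which both exceeded and fell below the control range of 14.02 to 14.16. The exposed rats of D0 were thus more scattered (SD 0.20, n = 5) than the controls (SD 0.056, n = 6). Single rats carried much of these values: the log2 FC was 0.10 on D0 without exposed replicate 3 and 0.054 on D28 without exposed replicate 4.

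Lpcat1 makes dipalmitoyl phosphatidylcholine, the main surfactant lipid, by adding an acyl chain back to the lysolipid. Its log2 FC was the largest of the 10 genes on both days in the model without slides, with a wide spread. Exposed rats of D0 had values of 9.36, 9.05, 8.76, 8.80 and 8.88 beside 8.03 to 8.85 (median 8.52) in controls. On D28, controls spread from 7.80 over 8.61 to 9.19 and exposed rats from 8.57 over 9.08 to 9.24. Lpcat1 had a log2 FC of 0.44 (SE 0.21, adjusted p 0.436 in limma) on D0 and 0.46 (SE 0.20, adjusted p 0.382) on D28. Groups overlapped on both days. Within slides, the differences ran from 0.29 to 0.73 on D0, with a mean of 0.46. On D28 they were 0.38, 0.20 and 0.23, with a mean of 0.27 that lay below those of Sftpd (0.30), Napsa (0.30) and Sftpa1 (0.29). The lowest control of D28, replicate 4 at 7.80, enters no within-slide difference, since it was alone on its slide, the only one read with the later scanner software. Without it the log2 FC of Lpcat1 on D28 was 0.31.

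Slc34a2 encodes the sodium-phosphate cotransporter of the type II cell surface, which recovers phosphate from the alveolar fluid. Exposed rats of D0 had values of 12.15, 11.95, 11.92, 11.89 and 11.87, and controls ran from 11.62 over 11.71 to 11.91. Of the 5 exposed rats, 3 lay above all controls, and the only control above 11.71 was replicate 6, at 11.91. The log2 FC on D0 was 0.24 (SE 0.084, adjusted p 0.170 in limma, and 0.0261 to 0.237 over the other settings, below 0.05 in 1 of them). On D28 it was 0.067 (SE 0.080, adjusted p 0.857), with ranges of 11.64 to 12.01 in controls and 11.67 to 12.04 in exposed rats. Leaving out control replicate 1 or 4 or exposed replicate 4, 5 or 6 of D28 moved this value to between 0.034 and 0.11.

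Etv5, a transcription factor of the ETS family that keeps type II cells in their differentiated state, was the single gene of the 10 with a lower mean in exposed rats on D0. The exposed rats had values of 13.00, 12.67, 12.66, 12.79 and 12.54, and the controls ran from 12.89 over 12.97 to 13.04. Replicate 1 of the exposed rats lay within the control range and the other 4 lay below all controls. The log2 FC was -0.23 (SE 0.094, a 0.85-fold level), with an adjusted p of 0.257 in limma. On D28 it was -0.10 (SE 0.089, adjusted p 0.776), and only 1 of 6 exposed rats lay below the controls. That value was -0.054 without control replicate 3 and -0.050 without exposed replicate 4 of D28. The within-slide differences of D0 were all negative, from -0.37 to -0.044.

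**Figure D3:**
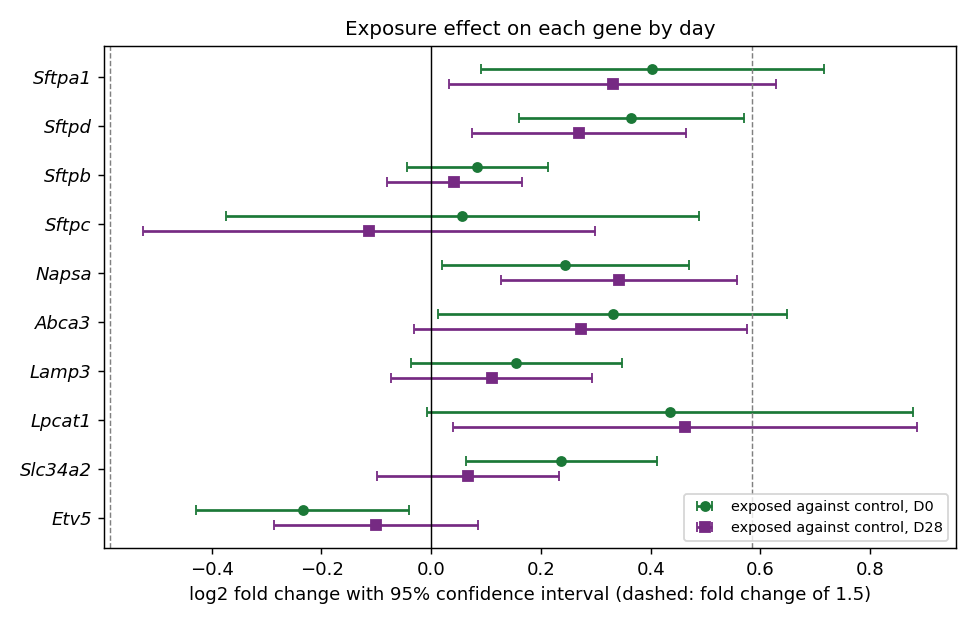
Log2 FC of exposed against control rats (horizontal axis) for each gene on D0 (circles) and D28 (squares), with limma 95% confidence intervals, and dashed lines at an FC of 1.5. The intervals exclude 0 for 6 genes on D0 and for 4 on D28, before adjustment, and no estimate reaches the dashed lines.

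The effects of D28 and D0 were then set against each other in the same model. No gene of the 10 differed between days as a DEG would (0.0304% of all genes did), and none had an unadjusted p below 0.05. The difference, D28 minus D0, ran from -0.17 for Sftpc to 0.13 for Etv5 on the log2 scale. The value of Sftpc came from its opposite-strand probe, and its gene-strand probe gave -0.021 after scaling to the 75th percentile. For Slc34a2, the gene with the smallest p in this comparison, it was -0.17 with an interval of -0.41 to 0.071 and an unadjusted p of 0.157 in limma. The intervals were wide, at most for Lpcat1 with -0.59 to 0.64, so that neither persistence nor loss of a difference was resolved.

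Time alone was compared within each treatment, on the same arrays as the exposure effects. Between control rats of D28 and D0, none of the 10 genes was a DEG, beside 0.608% of all genes. Only Sftpc had an unadjusted p below 0.05, with a log2 FC of 0.42 (SE 0.20, adjusted p 0.370 in limma), and this came from its opposite-strand probe, since the gene-strand probe differed by 0.099 (exact permutation p = 0.597) after scaling to the 75th percentile. Between exposed rats of D28 and D0, none was a DEG either, beside 0.352% of all genes, and none had an unadjusted p below 0.05. The differences there ran from -0.25 for Sftpa1 to 0.25 for Sftpc. The latter again came mostly from the opposite-strand probe, and the gene-strand probe differed by 0.078 after scaling to the 75th percentile.

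Whether the genes varied together from rat to rat was described by correlating their deviations from the group means over the 23 arrays, which share slides and normalization. Pairs did not move as a block. The median r over 45 pairs was 0.10, with 27 pairs positive and 5 above 0.5. Lpcat1 and Sftpa1 were the closest pair (r = 0.81, rho = 0.84). Napsa and Sftpd followed (r = 0.68, rho = 0.72), then Sftpa1 and Sftpd (r = 0.59, rho = 0.60). Sftpa1 and Sftpc went in opposite directions (r = -0.64, rho = -0.64), where Sftpc is the opposite-strand probe for the reason given above, and so did Napsa and Sftpb (r = -0.51, rho = -0.55). Sftpb, whose spread is narrowed by the normalization, was not closer to any of the others than to Sftpa1, at r = 0.10.

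**Figure D4:**
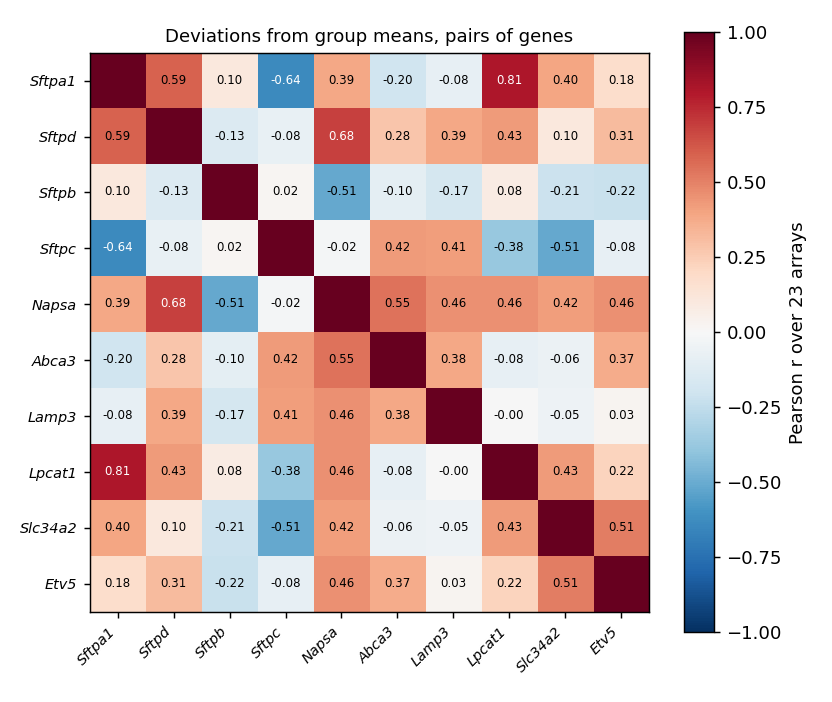
Pearson r (colour, and printed in each cell) between deviations from group means for each pair of the 10 genes, over 23 arrays. Red cells run together and blue cells oppose, with the pair of Lpcat1 and Sftpa1 highest at 0.81 and that of Sftpa1 and Sftpc lowest at -0.64.

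Outside the 10, the 8 genes whose deviations correlated best with the mean deviation of the 10 were Cbl, Hs1bp3, Atp9a, Tbc1d32, Asb13, Lrrc58, Nkx2-1 and Tmem63a, with r from 0.83 to 0.87 (rho 0.72 to 0.89, n = 23). The 8 were picked by r from all genes on these same arrays, so high values follow in part from the choice. The mean of the 10 includes Sftpc, which varied almost only through its opposite-strand probe. Nkx2-1 encodes the factor whose site core was searched above, and had the highest rho of the 8 (r = 0.84, rho = 0.89). Without the 2 arrays farthest from the median, its r was 0.93, and that of the other 7 lay between 0.73 and 0.82. Nkx2-1 itself had a log2 FC of 0.10 (SE 0.10, adjusted p 0.877 in limma) on D0 and 0.20 (SE 0.10, adjusted p 0.495) on D28. Whether its product acts on the 10 genes was not tested. The site core was found in 1 of the 7 member promoters searched, that of Sftpb, beside 13.3% of all promoters.

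The wider pathway was read from 8 lists with 156 measured genes. Of these, 20 were DEGs on D0 and 4 on D28, where 1.78% and 0.756% of all genes were, the share to set beside each list below. The cell cycle list, which is not particular to type II cells, held 10 of the 20. For the making of the proteins, no DEG was found among 14 genes of surfactant protein processing on either day, with a median log2 FC of 0.080 on D0 and -0.023 on D28. The largest values in that list were 0.50 (SE 0.17, adjusted p 0.147) on D0 for Ctsh, the cathepsin that acts with napsin A, then -0.40 for Nedd4l and 0.34 for Ctsb on the same day, while Adgrf5, a receptor that restrains the surfactant pool, gave -0.28 and -0.31.

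Lamellar body and trafficking genes gave 3 over-expressed genes of 24 on D0 and 1 on D28, with medians of 0.060 and 0.063. P2ry2, the receptor through which extracellular ATP triggers surfactant secretion, rose on both days, by 0.76 (SE 0.13, adjusted p 0.0013 in limma) and 0.60 (SE 0.12, adjusted p 0.0139). Npc2, a cholesterol-binding protein of lysosomes and lamellar bodies, rose by 0.76 (SE 0.13, adjusted p 0.0020) on D0, and Atp8a1, a phospholipid flippase, by 0.81 (SE 0.20, adjusted p 0.0336). On D28 these were at 0.40 and 0.62, with adjusted p of 0.145 and 0.139. Vamp2 had the largest negative value, -0.52 on D0, with an adjusted p of 0.391.

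Phospholipid synthesis gave 1 under-expressed gene of 31 on D0 and none on D28, with medians of 0.028 and 0.0080. That gene was Scd, stearoyl-CoA desaturase, which makes monounsaturated fatty acids. It fell by 2.15 (SE 0.37, adjusted p 0.0019 in limma) on D0, and its log2 FC on D28 was -1.40 (SE 0.35, adjusted p 0.0522). Gpam, which starts glycerolipid synthesis, had a log2 FC of 0.42 (adjusted p 0.0703) on D0, and Elovl6, a fatty acid elongase, -0.59 (adjusted p 0.542) on D28. The genes for surfactant turnover in macrophages gave no DEG of 14. Csf2, which encodes the cytokine that alveolar macrophages need to clear surfactant, was at 0.010 on D0 and 0.47 (SE 0.11, adjusted p 0.0329) on D28, below the FC limit. Marco had the largest values, 1.04 and 0.85, but was well above background on only 2 exposed arrays of D0 and on no other array, so that its D28 value compares groups at background. Spi1, Csf2ra and Csf2rb, the latter well above background on 1 to 3 arrays of each group, completed the genes of largest value in that list.

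Of the 15 transcription factors of type II cells, Elf3, an epithelial ETS factor, was the only DEG. It rose by 0.65 (SE 0.15, adjusted p 0.0187 in limma) on D0 and had a log2 FC of 0.25 (adjusted p 0.583) on D28, beside list medians of 0.015 and -0.027. Tead1 gave -0.53, Klf5 -0.43 and Cebpa 0.27 as the next largest of either day, none of them past the adjusted p.

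Other type II markers gave 2 over-expressed and 1 under-expressed genes of 24 on D0, and 2 over-expressed genes on D28, with medians of 0.036 and 0.011. Chi3l1, a chitinase-like secreted protein, rose by 1.19 (SE 0.24, adjusted p 0.0062 in limma) on D0 and 0.95 (SE 0.22, adjusted p 0.0371) on D28. Muc1, a membrane mucin, rose by 0.64 (SE 0.14, adjusted p 0.0101) and 0.61 (SE 0.13, adjusted p 0.0232). S100g, a calcium-binding protein, fell by 0.61 (SE 0.13, adjusted p 0.0122) on D0 and was at -0.047 on D28. Egfl6 was at -0.027 and 0.45.

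Genes that type II cells express after damage gave 2 over-expressed genes of 19 on D0 and 1 on D28, with medians of 0.23 and 0.060. Orm1, an acute-phase protein, rose by 3.56 (SE 0.56) and 3.62 (SE 0.53), with adjusted p of 0.00082 and 0.0010 in limma. Lcn2, an iron-binding protein of innate defence, rose by 1.65 (SE 0.28, adjusted p 0.0014) on D0 and was at 0.73 (adjusted p 0.231) on D28. Areg was at 0.98 (adjusted p 0.0643) on D0 and Cdkn1a at -0.74 (adjusted p 0.0828) on D28. Fga was not well above background on any array. Airway cells and macrophages can also express several genes of these last 2 lists.

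The cell cycle list had 10 over-expressed genes of 15 on D0 (Ccna2, Ube2c, Plk1, Ccnb1, Top2a, Mki67, Cdk1, Kif11, Ccnb2 and Bub1) and none on D28, with medians of 1.07 and 0.43. Mki67, a marker of dividing cells, rose by 1.11 (SE 0.14, adjusted p 0.00012 in limma) on D0 and was at 0.45 (adjusted p 0.111) on D28. Whole-lobe RNA does not say which cells divided. No gene of the 8 lists differed between days as a DEG would.

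**Figure D5:**
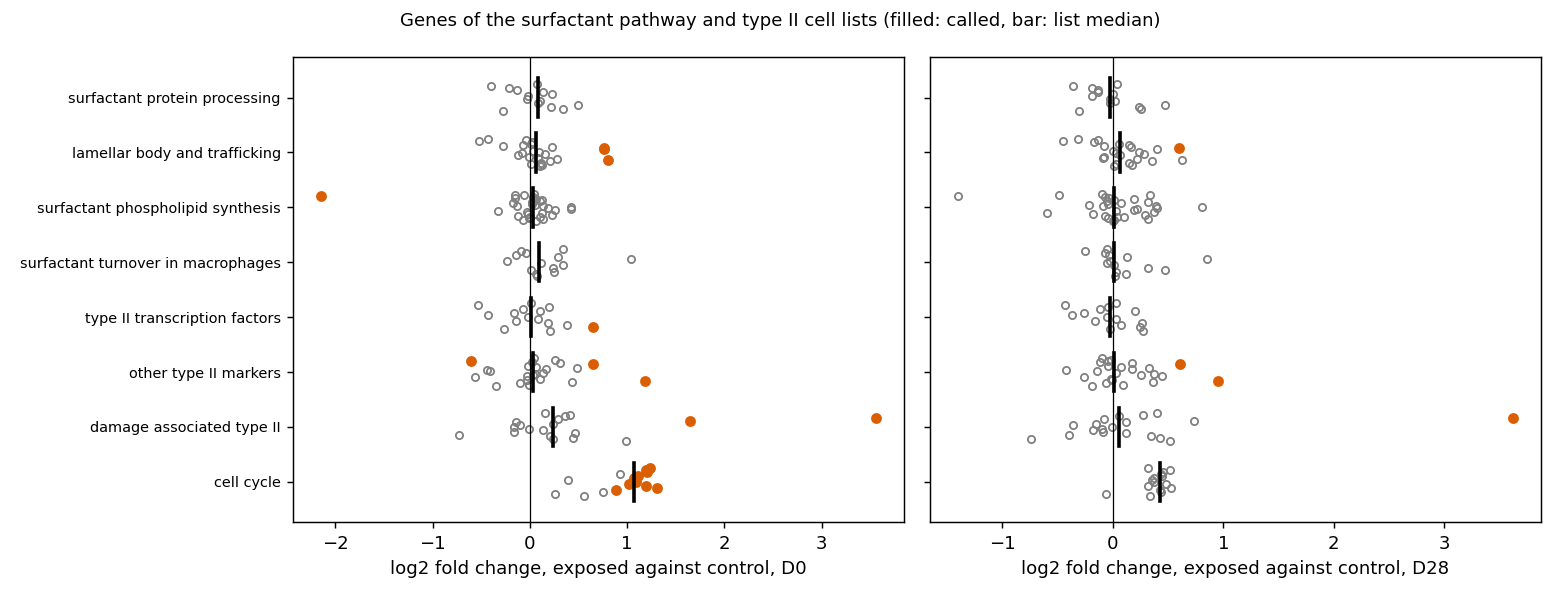
Log2 FC of exposed against control rats (horizontal axes, a separate range for each day) for the genes of the 8 pathway lists on D0 (left) and D28 (right), with filled points for DEGs, open points for other genes and a bar at the list median. Medians lie between -0.027 and 0.23 in all lists but that of the cell cycle, at 1.07 on D0 and 0.43 on D28.

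Some markers of the other cells of the lobe were lower or higher with exposure, and their part in the values above was not tested. Of 13 type I cell markers, 0 had a higher mean with exposure on D0 and 1 on D28 (medians -0.30 and -0.28), with Igfbp2 a DEG on both days (-0.92 and -0.66), and with Cav1, Aqp5, Akap5 and Rtkn2 as the other genes of largest value. Their summed linear signal ran from 324751 to 362872 in controls and from 246154 to 317687 in exposed rats of D0, without overlap, and from 325700 to 398986 and 284603 to 342761 on D28. Here and below, such a sum is weighted to the genes of highest signal in a list, and no share over all genes was computed for it. Of 10 endothelial markers, 0 were higher on either day (medians -0.26 and -0.27), and no DEG was among them. Their sums were 74873 to 86863 and 59789 to 77064 on D0, and 77916 to 97444 and 63955 to 81316 on D28. Emcn, Cldn5, Sox17, Tek and Pecam1 had the largest values.

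Of 13 macrophage markers, 11 were higher on D0 and 8 on D28 (medians 0.41 and 0.083). Their sums were 55073 to 65053 in controls and 74463 to 88721 in exposed rats of D0, without overlap, and 50223 to 70202 and 63209 to 84679 on D28. Siglec1 was a DEG on D0 and Ctsk on both days. Itgax had the next largest value among those above background, and Chi3l3 was not well above background on any exposed array. Of 13 neutrophil markers, only 4 were higher on D0 and 5 on D28 (medians -0.12 and -0.14), and none was a DEG. Their sums overlapped, at 19100 to 53560 and 14962 to 52910 on D0, and 15988 to 37217 and 24909 to 63322 on D28. The median sum was nevertheless higher with exposure, at 20687 in controls and 49940 in exposed rats of D0, and 23768 and 30132 on D28. Fpr1, Ngp, Il1r2, Mmp8 and S100a9 were the genes of largest value. Of these, Ngp was well above background on 0 of 5 exposed arrays of D0 and 1 of 6 of D28.

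Of 10 ciliated cell markers, 1 was higher on each day (medians -0.28 and -0.36), with Rsph1, Dnai1, Tppp3, Dnah5, Ccdc39 and Dnah9 in front and no DEG. Their sums were 51674 to 70612 in controls and 41418 to 57001 in exposed rats of D0, and 55022 to 73926 and 45462 to 57911 on D28. The 9 club and secretory cell genes (medians -0.16 and -0.17) held 1 DEG on each day, Bpifb1 at 2.30 and 1.21, with Bpifa1, Cyp2f4 and Scgb3a1 next, and sums of 152600 to 203292 and 124520 to 191690 on D0, and of 138780 to 198818 and 137023 to 166955 on D28. The 10 genes of heart and skeletal muscle (medians -0.47 and -0.30) held Myl7 as a DEG on both days (-0.60 and -0.63), with Ckm, Ryr2, Acta1 and Tnnt2 next, Nppa not well above background on any array, and sums of 10978 to 16394 and 8269 to 11584 on D0, and of 11660 to 15804 and 8782 to 12614 on D28.

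General epithelial markers had medians near 0, at 0.0015 on D0 and 0.044 on D28, where 4 and 5 of 8 were higher and none was a DEG. Ovol2, Epcam, Cldn3 and Prom1 were the genes of largest value. Ovol2 had a log2 FC of -0.37 (SE 0.10, adjusted p 0.0485 in limma) on D0, short of the FC limit, and -0.28 (adjusted p 0.199) on D28. The sums of the 8 markers were 19179 to 22024 in controls and 18430 to 22102 in exposed rats of D0, and 20718 to 22908 and 18729 to 22068 on D28. The 10 surfactant and type II cell genes thus had a median log2 FC of 0.24 on D0, where the type I list had -0.30 and the epithelial list 0.0015 on the same arrays. The 24 other type II markers had only 0.036 and the 15 type II transcription factors 0.015. The damage list had 0.23, the macrophage list 0.41 and the cell cycle list 1.07, so a higher median was not particular to the 10.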

How the data were processed

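The authors deposited, for each of 23 single-colour arrays, scanner output with intensities per spot (Agilent Feature Extraction, version 11.0.1.1 for 22 arrays, 12.0.1.1 for the remaining array), and a table of intensities of all arrays that was quantile normalized without background correction. The study's methods name a filter against negative controls, quantile normalization, batch correction of unnamed batches and limma with an FC limit of 1.5.

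Here the processed signal, corrected for background and spatial trends within the array, was used. Control spots were left out and outlier spots (0.794%) set missing. A probe was retained (40420 of 45598) where it exceeded the 95th percentile of the 308 negative controls in 5 arrays or more, log2 signals were quantile normalized, and probes of a symbol were averaged to 23031 genes, after 29 with a missing value were dropped. Symbols and rn4 positions were those of the array file with the later annotation. One limma model (version 3.58.1, R 4.3.3) with 4 group means, no batch term and 19 residual degrees of freedom was fitted, and adjusted p is Benjamini-Hochberg over all genes. The model was tested on simulated data with 200 changed genes. The number of arrays limits the precision. With 1 rat per array and no batch term, the spread behind the p-values holds differences between rats and between slides together.

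The members, the lists and the tests were chosen with earlier results of these data known. Of the list symbols not found, 3 were matched through RefSeq synonyms and 4 (Sftpa2, Ear2, Muc5ac and Myh6) were not measured. Named were all 10 members, every list gene that was a DEG on D0 or D28 and, in each list, the up to 3 genes of largest absolute log2 FC on each day, except 1 that is not reported here. The settings of 75th percentile scaling, cyclic loess, normexp with an offset of 50, the median signal, the deposited table, other filters, the top or each single probe, arrays of a day, slide and replicate number as blocks, an intensity trend, array weights, the adjusted p alone and leaving out each array were tried. Setting saturated spots missing changes nothing, since there were 0.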

Additional observations from a re-analysis of the deposited data

Results flagged for a closer look

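In 2 of 40 sets of values (10 genes in 4 groups), 1 rat lay far from the rest of its group by Dixon's ratio, and chance alone gives about 1 in 20. Both were for Slc34a2 on D0. Replicate 6 of the control rats was at 11.91, with the next at 11.71, and replicate 1 of the exposed rats at 12.15, with the next at 11.95. Leaving out single arrays kept the log2 FC of Slc34a2 on D0 between 0.19 and 0.27, with adjusted p from 0.107 to 0.385 in limma.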

How the results depend on the processing

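No member was a DEG in any of the 5 comparisons under any setting tried, except that 1, Sftpd, passed on D0 with the adjusted p alone. Nor did the counts change with the replicate number as a block (0 members, 20 pathway genes on D0 and 4 on D28, as without it), and the adjusted p of Sftpd on D0 was then 0.122. The numbers did not pair the arrays: same-numbered exposed and control arrays deviated together at r from -0.22 to -0.12 on D0 and from -0.17 to 0.46 on D28, and 0 of 5 and 3 of 6 correlated best with their own number. Leaving out each array gave 0 members in each comparison, 16 to 21 pathway genes on D0 and 2 to 5 on D28, where 2 came without control replicates 3 or 4 or without exposed replicates 4, 5 or 6 of D28. With the arrays of the day only, 1 pathway gene was a DEG on D28. On both days, 9 members kept their sign in every setting, and Sftpc did not. Its log2 FC on D0 was -0.025 with the probe of highest mean, without the second probes of Sftpc and Abca3, and with its gene-strand probe alone, -0.0025 as the mean of within-slide differences and -0.0079 without exposed replicate 3 of D0 (from there to 0.14 over arrays left out). On D28 it was 0.045 with the gene-strand probe alone after scaling to the 75th percentile. With single probes, the change comes from separating the fixed probe from the other; for the remaining settings the cause was not tested. Leaving out those second probes and testing single probes after that scaling were chosen after seeing the data. Among 10 members, the highest interval bound, for Lpcat1, was an FC of 1.84 on D0 and 1.85 on D28, and the bound also passed 1.5 for Sftpa1 on both days (1.64 and 1.55) and for Abca3 on D0 (1.57), so these arrays do not bound the change of these genes below the FC limit.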
